A study of Homo sapiens with 12 samples.

Results

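The SLC25 family of mitochondrial carriers was measured on 12 arrays of MCF-10A cells, an immortalised human mammary epithelial line that does not form tumours. The members are the genes whose symbol in the probe annotation starts with SLC25A, 45 of 17687 named genes, each with 1 probe set. They comprise 44 carrier genes and the antisense RNA SLC25A48-AS1. Each array gave a log2 signal, so a difference of 1 is a 2-fold change. The co-culture group (4 arrays) held a mixture of HER2 L755S and PIK3CA E545K cells, harvested at about 75% HER2-mutant and 25% PIK3CA-mutant cells. The HER2 L755S group (4 arrays) held the line with a kinase-domain mutation of the receptor HER2, grown alone. The PIK3CA E545K group (4 arrays) held the line whose mutation lies in PIK3CA, the gene of a catalytic PI3K subunit, also grown alone. All 3 groups share the MCF-10A background and a medium whose EGF was kept at a physiologic level, and harvest fell between day 7 and day 14. The labels name 1 line per mutation, and no MCF-10A line without either mutation was analysed here. The labels do not say whether the arrays of a group came from separate cultures, so p-values measure the spread between these arrays, which may be technical.

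SLC25 proteins sit mostly in the inner mitochondrial membrane and exchange ADP, ATP, phosphate, citrate, amino acids, nucleotides and cofactors between matrix and cytosol. They share a fold of 3 repeats, each with a pair of membrane helices, and are made in the cytosol and inserted through the TIM22 translocase. In epithelial cells they link glycolysis to respiration through the malate-aspartate shuttle, feed citrate carbon to lipid synthesis and bring folate, glycine and iron to matrix enzymes.

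Of the 45 genes, 38 had a signal above the 30th percentile of named probe sets (4.30 to 4.42 by array) on at least 4 of the 12 arrays and were tested. Of these, 37 were above it on all 12 arrays. SLC25A45 was above it on 4 arrays, spread over the 3 groups. The other 7 were dim: SLC25A2, SLC25A31, SLC25A41, SLC25A42, SLC25A48, SLC25A48-AS1 and SLC25A53 were above it on at most 3 arrays. SLC25A31, the ADP/ATP carrier of male germ cells, had signals of 3.99, 4.11, 4.02 and 3.96 in the co-culture, 4.06, 3.98, 4.09 and 4.39 in the HER2 L755S culture and 4.00, 4.00, 4.45 and 4.16 in the PIK3CA E545K culture. SLC25A3, SLC25A6 and SLC25A15 were not analysed here.

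The median signal of the arrays ranged between 6.41 and 6.49. All 5 epithelial markers measured passed the filter, and 4 of them differed between the lines, 2 in each direction. The keratin gene KRT5, which did not pass between the lines, had means of 17.13 in the co-culture, 17.33 in the HER2 L755S line and 17.44 in the PIK3CA E545K line. KRT18 had 12.88, 10.86 and 13.18 and EPCAM 10.80, 9.15 and 11.17 in the same order, both lower in the HER2 L755S line (limma adjusted p 1.51e-16 and 1.58e-12). CDH1 and KRT14 were higher there, by 0.72 (1.61e-05) and 0.60 (0.00115). The part of these markers in the results was not tested. Of 5 fibroblast markers measured, PDGFRB and LUM did not pass the filter on dim probe sets, while DCN had means of 8.03 in the co-culture, 10.70 in the HER2 L755S line and 7.07 in the PIK3CA E545K line. The summed signal of the epithelial markers, most of it from KRT5, was 17.27 to 17.31 in the co-culture, 17.40 to 17.54 in the HER2 L755S line and 17.56 to 17.62 in the PIK3CA E545K line. The summed fibroblast-marker signal, on the log2 scale, was 9.56 to 9.75 in the co-culture, 10.92 to 11.29 in the HER2 L755S line and 8.91 to 9.41 in the PIK3CA E545K line, and its part in the results was not tested. Of 4 blood markers, PTPRC and HBB did not pass the filter, and the summed signal was 7.86 to 8.39, 6.76 to 6.99 and 7.75 to 8.18 in the same order. Of 4 endothelial markers, 3 did not pass, with sums of 6.36 to 6.60, 6.21 to 6.76 and 6.34 to 6.70. Probe sets for ERBB2 and PIK3CA were not analysed here, so the genotypes were not checked. Across the 12758 genes tested, the median correlation of the co-culture arrays was 0.949 with the HER2 L755S arrays and 0.986 with the PIK3CA E545K arrays, although the labels give HER2-mutant cells as the majority.

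The promoters of 4 members whose transcripts differed strongly between the lines are shown first. They are the 2 largest differences in each direction among members with an entry in the RefSeq promoter table (GRCh38.p14), which held 38 of the 45 genes. Each stretch is the 250 bases before the start site, 5′ to 3′ on the gene's strand, with matches to the motifs searched in capitals. SLC25A27 (chr6:46652725-46652974, plus strand) and SLC25A23 (chr19:6459793-6460042, minus strand) were higher in the HER2 L755S line, and SLC25A13 (chr7:96322099-96322348, minus strand) and SLC25A1 (chr22:19178737-19178986, minus strand) were lower.
SLC25A27: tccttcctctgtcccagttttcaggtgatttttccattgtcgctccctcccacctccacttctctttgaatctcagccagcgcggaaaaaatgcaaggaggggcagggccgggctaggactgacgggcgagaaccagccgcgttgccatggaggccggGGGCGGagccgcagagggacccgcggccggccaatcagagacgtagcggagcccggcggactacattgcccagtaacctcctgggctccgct
SLC25A23: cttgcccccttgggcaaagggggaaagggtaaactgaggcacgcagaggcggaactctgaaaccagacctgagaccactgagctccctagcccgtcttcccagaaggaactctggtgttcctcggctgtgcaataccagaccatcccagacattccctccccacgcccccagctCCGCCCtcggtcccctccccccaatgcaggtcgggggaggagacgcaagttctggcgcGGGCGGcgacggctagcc
SLC25A13: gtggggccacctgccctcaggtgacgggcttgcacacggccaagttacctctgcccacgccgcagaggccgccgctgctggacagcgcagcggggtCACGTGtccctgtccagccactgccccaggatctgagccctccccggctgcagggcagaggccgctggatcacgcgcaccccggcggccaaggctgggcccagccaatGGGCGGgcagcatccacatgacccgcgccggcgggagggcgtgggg
SLC25A1: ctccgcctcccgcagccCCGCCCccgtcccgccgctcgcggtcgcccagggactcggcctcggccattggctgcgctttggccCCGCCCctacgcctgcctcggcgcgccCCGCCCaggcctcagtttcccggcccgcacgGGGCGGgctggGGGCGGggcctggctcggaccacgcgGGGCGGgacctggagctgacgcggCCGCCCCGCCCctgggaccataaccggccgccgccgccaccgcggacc
The capitals mark the GC box GGGCGG, read on both strands, in all 4 promoters, and the E-box CACGTG in that of SLC25A13. The G and C content was 63.2%, 64.4%, 73.6% and 81.6% in the order printed, against a median of 58.0% over all promoters in the table. In SLC25A1 the GC boxes include a pair that overlap.

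Over 48 promoters of the 38 member genes, 8 motifs were searched on both strands. The E-box CACGTG, a site that MYC and MAX can bind, was in 8 member promoters (16.7%), against 6.34% of all 35116 promoters. Of the 8 genes, 7 were tested, and between the lines 3 of these were higher in HER2 L755S (SLC25A26, SLC25A38 and SLC25A51), 3 were lower (SLC25A13, SLC25A36 and SLC25A46) and SLC25A33 did not pass. Genes with this motif thus went in either direction. The GC box was in 30 member promoters (62.5%), against 42.6% of all. The ETS element CCGGAAGT was in 4 (8.33%, against 3.42%), the cyclic AMP response element TGACGTCA in 3 (6.25%, against 1.65%) and the NRF1 element in 3 (6.25%, against 5.07%). The sterol element TCACNCCAC was in 1 (SLC25A40, against 0.883% of all) and the ATF4 composite element TGATGNAA in 1 (SLC25A11, against 3.14%). The FOXO element TGTTTAC was in 0, against 2.98% of all promoters. Other motifs may overlap these letters, and a match does not show binding.

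Comparing the single cultures asked how the carrier repertoire of the lines differed. Individual carriers shifted by up to 6.24-fold, but the family was split evenly. Of the 38 genes tested, 24 passed the threshold, against 59.5% of all genes: 12 were higher in the HER2 L755S line, 12 were lower and 14 did not pass (limma, Benjamini-Hochberg adjusted p under 0.05). Among all genes tested, 30% were higher and 29.5% lower, so the members' 31.6% in each direction lay near the background. The median difference was -0.07 over the members and 0.05 over all genes, and the median size of the difference was 0.54 and 0.44. Differences past the threshold reached 1 or more (log2) upward in 5 members and downward in 5, against 9.01% and 12.3% of all genes. The arrays of the lines did not overlap for 21 members, against 53% of all genes.

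**Figure D1:**
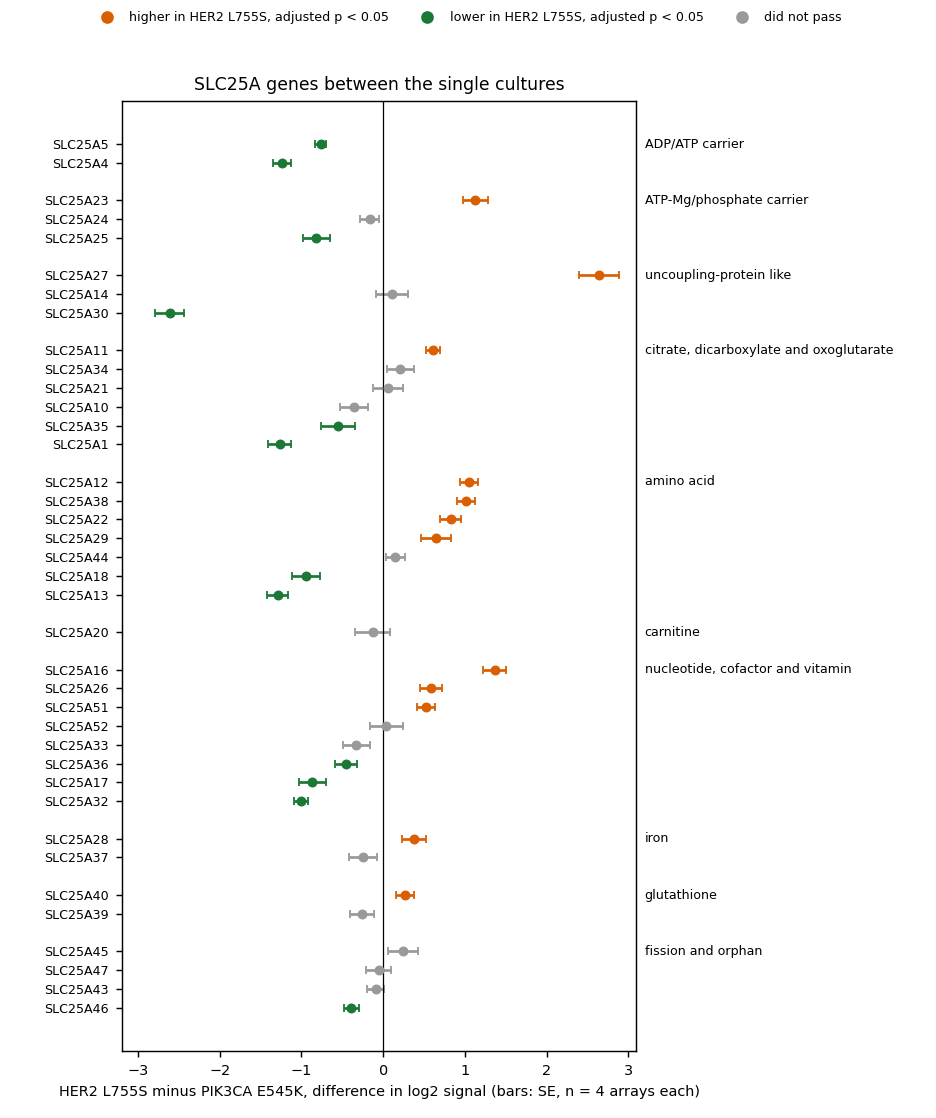
Difference in log2 signal between the HER2 L755S and PIK3CA E545K single cultures for the 38 SLC25A genes tested, grouped by the role of the carrier. Points are limma estimates, bars are their standard errors, and the 12 higher and 12 lower genes are coloured. SLC25A27 and SLC25A30, of the same role group, lie at the opposite ends, at 2.64 and -2.61.

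The widest differences were in the uncoupling-protein-like carriers, and they ran in opposite directions. SLC25A27 (UCP4) is a neuronal relative of the brown-fat uncoupling protein. Its signals were 6.89, 6.81, 6.25 and 6.49 in the co-culture, 7.55, 8.79, 8.37 and 7.47 in the HER2 L755S culture and 5.10, 5.97, 5.15 and 5.39 in the PIK3CA E545K culture. No array overlapped between groups, and it was 6.24-fold higher in the HER2 L755S line (2.64 ± 0.25 on the log2 scale, SE, limma adjusted p 3.61e-09). SLC25A30, the kidney mitochondrial carrier named for the tissue of its discovery, had 7.08, 6.46, 6.94 and 6.92 in the co-culture, 5.51, 5.04, 5.12 and 5.23 in the HER2 L755S culture and 8.06, 7.56, 8.09 and 7.64 in the PIK3CA E545K culture. It was 6.12-fold lower in the HER2 L755S line (-2.61 ± 0.18, adjusted p 9.47e-12), again with no overlap. SLC25A27 averaged 5.40 in the PIK3CA E545K culture and SLC25A30 averaged 5.22 in the HER2 L755S culture. These low means were not far above the filter on dim probe sets. The third gene of the group, SLC25A14 (UCP5), averaged 5.62 ± 0.45 in the HER2 L755S line and 5.50 ± 0.21 in the PIK3CA E545K line (SD, n = 4 each), and the difference did not pass (limma adjusted p 0.644).

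The aspartate/glutamate carriers of the malate-aspartate shuttle also split. SLC25A12 (AGC1, aralar), the isoform of brain and muscle, measured 10.75, 10.62, 10.81 and 10.68 in the co-culture, 11.66, 11.27, 11.33 and 11.37 in the HER2 L755S culture and 10.62, 10.08, 10.37 and 10.36 in the PIK3CA E545K culture. It was higher in the HER2 L755S line by 1.05 ± 0.11 (SE, limma adjusted p 3.51e-08). SLC25A13 (AGC2, citrin), the isoform of liver and epithelial tissues, measured 10.19, 9.93, 10.10 and 10.35 in the co-culture, 9.32, 8.88, 9.05 and 9.44 in the HER2 L755S culture and 10.48, 10.50, 10.31 and 10.55 in the PIK3CA E545K culture. It differed by -1.29 ± 0.13 (adjusted p 7.78e-09), so the lines had the reverse order for each isoform, without overlap of arrays. SLC25A11, the oxoglutarate/malate carrier that completes the shuttle, was higher by 0.61 (2.68e-06).

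The proton-coupled glutamate carriers followed the same split. SLC25A22 (GC1) had 8.37, 8.51, 8.79 and 8.64 in the co-culture, 9.67, 9.77, 9.65 and 9.36 in the HER2 L755S culture and 8.82, 8.71, 8.78 and 8.85 in the PIK3CA E545K culture, and was higher in the HER2 L755S line by 0.83 ± 0.13 (limma adjusted p 5.46e-06). SLC25A18 (GC2) had 7.70, 7.08, 7.08 and 7.36 in the co-culture, 7.00, 6.79, 7.30 and 6.78 in the HER2 L755S culture and 7.78, 7.79, 8.26 and 7.80 in the PIK3CA E545K culture, and differed by -0.94 ± 0.17 (5.61e-05). Neither gene's HER2 L755S arrays overlapped with its PIK3CA E545K arrays.

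Other amino acid carriers that passed were higher in the HER2 L755S line. SLC25A38 imports glycine for the first step of haem synthesis. Its signals were 11.24, 11.57, 11.57 and 11.58 in the co-culture, 11.71, 11.87, 11.92 and 12.20 in the HER2 L755S culture and 10.89, 11.003, 10.75 and 11.03 in the PIK3CA E545K culture, with a difference of 1.01 ± 0.11 (limma adjusted p 3.91e-08) and no overlap. SLC25A29, a carrier of basic amino acids, was higher by 0.64 (0.00387). SLC25A44, which carries branched-chain amino acids, differed by 0.15 and did not pass (0.296). In all, 4 of 7 tested amino acid carriers were higher, 2 were lower and 1 did not pass.

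The ADP/ATP carriers, the exchangers through which matrix ATP reaches the cytosol, were lower together in the HER2 L755S line. SLC25A4 (ANT1) had 10.60, 10.76, 10.67 and 10.75 in the co-culture, 9.73, 9.55, 9.93 and 10.09 in the HER2 L755S culture and 11.04, 10.97, 11.18 and 11.06 in the PIK3CA E545K culture. It was 2.35-fold lower (-1.23 ± 0.11, limma adjusted p 1.85e-09). SLC25A5 (ANT2), the isoform of proliferating cells, had 15.09, 15.05, 14.99 and 15.16 in the co-culture, 14.44, 14.23, 14.47 and 14.52 in the HER2 L755S culture and 15.21, 15.07, 15.17 and 15.26 in the PIK3CA E545K culture, a difference of -0.76 ± 0.07 (adjusted p 2.76e-09). In neither gene did the arrays of the lines overlap. The 2 genes are close relatives and SLC25A5 has many processed pseudogenes, so the source of the signal is uncertain.

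The calcium-regulated ATP-Mg/phosphate carriers, which set the adenine nucleotide content of the matrix, were divided. SLC25A23 had 8.40, 7.93, 8.43 and 8.601 in the co-culture, 8.74, 8.61, 9.09 and 8.99 in the HER2 L755S culture and 7.50, 7.80, 7.88 and 7.74 in the PIK3CA E545K culture, and was higher in the HER2 L755S line by 1.13 ± 0.16 (limma adjusted p 1.26e-06) without overlap. SLC25A25 differed by -0.82 (0.000162), at 4.87 ± 0.21 in the HER2 L755S line and 5.69 ± 0.17 in the PIK3CA E545K line (SD, n = 4 each), not far above the filter on dim probe sets. SLC25A24 differed by -0.16 and did not pass (0.244).

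SLC25A1, the citrate carrier that supplies cytosolic acetyl-CoA for fatty acid and sterol synthesis, was lower in the HER2 L755S line. Its signals were 11.47, 11.76, 11.48 and 11.45 in the co-culture, 9.94, 10.43, 10.69 and 10.28 in the HER2 L755S culture and 11.24, 11.84, 11.70 and 11.62 in the PIK3CA E545K culture. The arrays of the lines did not overlap, and the difference was -1.27 ± 0.14 (limma adjusted p 4.16e-08), 2.41-fold. SLC25A35, a poorly characterised relative of the oxaloacetate carrier, differed by -0.56 (0.0266). The dicarboxylate carrier SLC25A10 (-0.35, 0.0839), the oxodicarboxylate carrier SLC25A21 (0.06, 0.8) and SLC25A34 (0.21, 0.282) did not pass.

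Among carriers of nucleotides, cofactors and vitamins, 3 of 8 tested were higher, 3 were lower and 2 did not pass. SLC25A16, linked to coenzyme A accumulation in the matrix, had 8.09, 8.29, 8.18 and 8.33 in the co-culture, 9.06, 9.40, 9.25 and 9.04 in the HER2 L755S culture and 7.46, 7.91, 7.86 and 8.06 in the PIK3CA E545K culture. It was higher in the HER2 L755S line by 1.36 ± 0.14 (limma adjusted p 1.89e-08). SLC25A26, which imports S-adenosylmethionine, was higher by 0.59 (0.000574), and SLC25A51, which imports NAD+, by 0.53 (0.000229). SLC25A52 is a near copy of SLC25A51, so the source of either signal is uncertain; it differed by 0.04 and did not pass (0.881). SLC25A32, the mitochondrial folate and FAD carrier, had 12.56, 12.73, 12.50 and 12.62 in the co-culture, 12.02, 12.24, 12.28 and 12.17 in the HER2 L755S culture and 13.37, 13.03, 13.14 and 13.17 in the PIK3CA E545K culture. It differed by -1.004 ± 0.09 (adjusted p 1.18e-09), and neither SLC25A16 nor SLC25A32 overlapped between the lines. SLC25A17, a peroxisomal carrier of coenzyme A and related cofactors, differed by -0.87 (9.35e-05). The pyrimidine nucleotide carrier SLC25A36 differed by -0.46 (0.00549), and its relative SLC25A33 by -0.33 without passing (0.101).

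Among carriers of iron, glutathione and carnitine and the orphan members, 2 were higher, 1 was lower and 6 did not pass. The mitoferrin SLC25A28, which imports iron, was higher in the HER2 L755S line by 0.38 (limma adjusted p 0.0319), and the other mitoferrin, SLC25A37, differed by -0.25 and did not pass (0.236). SLC25A40 was higher by 0.27 (0.0381), and its relative SLC25A39, which imports glutathione, differed by -0.26 and did not pass (0.131). SLC25A46, an outer-membrane protein of mitochondrial dynamics, differed by -0.39 (0.000799). The carnitine/acylcarnitine carrier SLC25A20, which admits fatty acids for oxidation, differed by -0.13 ± 0.21 (SE) and did not pass (0.62). SLC25A43, SLC25A45 and SLC25A47 differed by -0.09, 0.24 and -0.05 and did not pass.

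Of the 24 calls between the lines, 21 held when any 1 of the 12 arrays was left out. SLC25A28 was lost without HER2 L755S replicate 2 or 4 or PIK3CA E545K replicate 1, 2 or 4 (adjusted p up to 0.121). SLC25A35 and SLC25A40 were lost without HER2 L755S replicate 1 or 4 or PIK3CA E545K replicate 1, 2 or 4 (up to 0.110 and 0.143). When the test asked for a change beyond 0.5 (log2), 6 of the 38 members were higher and 7 lower. Among the 12758 genes tested, 1561 were higher and 1963 lower by this margin.

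**Figure D2:**
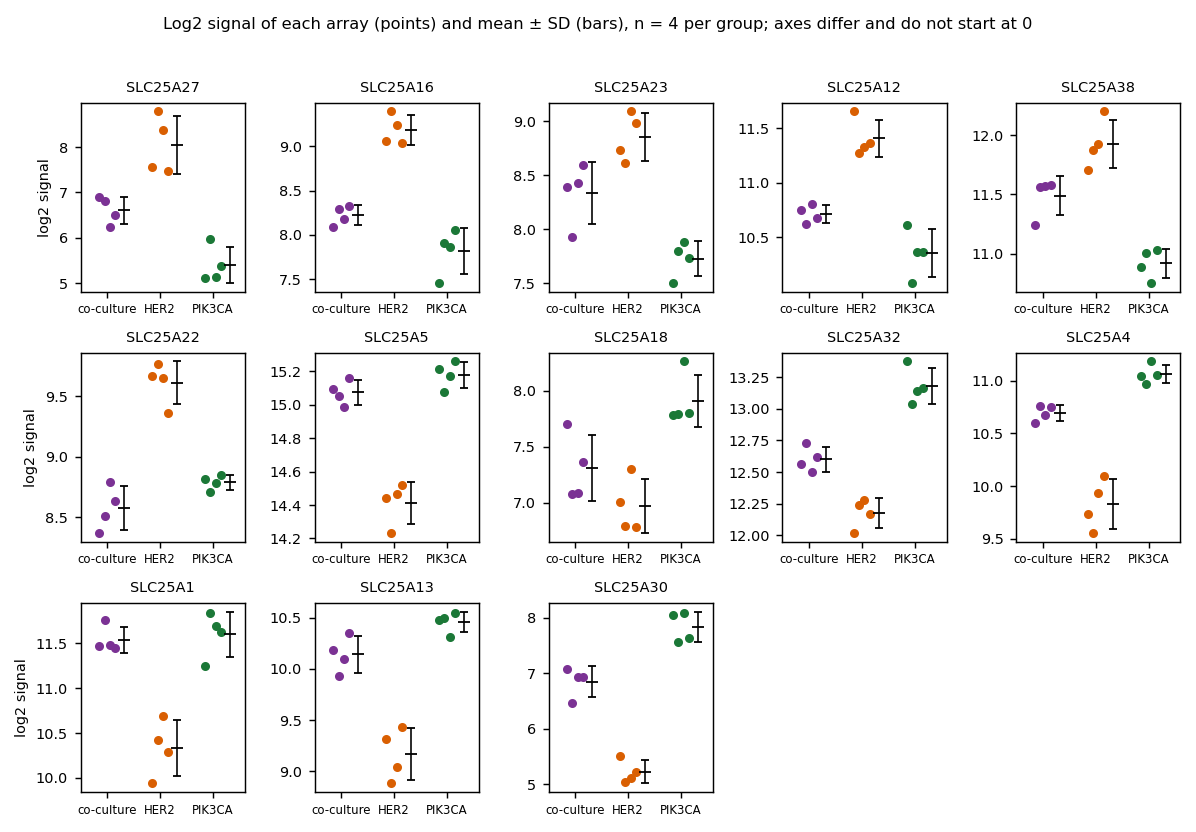
Log2 signal of every array for 13 members, those with the largest differences without overlap and the ADP/ATP carriers that passed the filter, ordered by their difference between the lines from SLC25A27 to SLC25A30. Points are arrays, bars are the mean ± SD of 4 arrays, and the vertical axes differ and do not start at 0. In each panel the HER2 L755S arrays lie apart from the PIK3CA E545K arrays.

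The co-culture was set against the HER2 L755S single culture to ask what distinguished the mixture from its majority line. Past the threshold were 22 of the 38 members, against 51% of all genes. In the co-culture 12 were higher, 10 were lower and 16 did not pass, against 24.9% higher and 26% lower among all genes. The members' shares were 31.6% and 26.3%. This comparison shares the HER2 L755S arrays with the comparison of the lines. In bulk RNA, fewer cells of a line and less RNA per cell cannot be told apart. SLC25A30 was higher by 1.63 ± 0.18 (SE, limma adjusted p 5.01e-08), SLC25A1 by 1.21 ± 0.14 (1.42e-07) and SLC25A13 by 0.97 ± 0.13 (9.92e-07), the 3 highest differences. All 3 had co-culture arrays above every HER2 L755S array. SLC25A27 differed by -1.43 ± 0.25 (4.39e-05), SLC25A22 by -1.04 ± 0.13 (3.12e-07) and SLC25A16 by -0.96 ± 0.14 (5.65e-06), the 3 lowest, likewise without overlap. The ADP/ATP carriers SLC25A4 and SLC25A5 were higher by 0.86 (8.27e-07) and 0.66 (5.21e-08).

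Smaller shifts against the HER2 L755S line ran through several roles. The mitoferrin SLC25A37 was higher by 0.74 (limma adjusted p 0.00116), SLC25A36 by 0.71 (0.000118), SLC25A25 by 0.67 (0.00146), SLC25A17 by 0.46 (0.0238), SLC25A32 by 0.42 (0.000336), SLC25A44 by 0.29 (0.0435) and SLC25A46 by 0.23 (0.04). On the lower side, SLC25A12 differed by -0.69 (2.18e-05), SLC25A11 by -0.64 (2.29e-06), SLC25A23 by -0.52 (0.00739), SLC25A38 by -0.44 (0.00199), SLC25A40 by -0.38 (0.00559), SLC25A24 by -0.30 (0.0351) and SLC25A51 by -0.29 (0.0304). Of the 22 calls, 17 held when any 1 array was left out. SLC25A17 was lost without HER2 L755S replicate 2 or 3 or co-culture replicate 1 or 3 (adjusted p up to 0.107), and SLC25A24 without HER2 L755S replicate 2, 3 or 4 or co-culture replicate 1 or 2 (up to 0.106). SLC25A46 was lost without HER2 L755S replicate 1, 2 or 4 or co-culture replicate 1, 2 or 3 (up to 0.121), and SLC25A51 without HER2 L755S replicate 1 or 4 or co-culture replicate 2 (up to 0.108). SLC25A44 was lost without HER2 L755S replicate 1 or 4, PIK3CA E545K replicate 3 or 4, or co-culture replicate 2, 3 or 4 (up to 0.173). Against the margin of 0.5, 4 members were higher and 3 lower, against 1331 and 938 of the 12758 genes tested.

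Against the PIK3CA E545K single culture, 12 of the 38 members passed, against 25.7% of all genes. Higher in the co-culture were 7 members and lower were 5, against 11.1% and 14.6% of all genes, and 26 did not pass. The members' shares were 18.4% and 13.2%. With array weights 8 members were lower, SLC25A13, SLC25A17 and SLC25A43 being added, and with the arrays compared alone 8 were lower, SLC25A13, SLC25A17 and SLC25A35 being added. On the higher side SLC25A26 was added by either alternative, and SLC25A29 with the arrays compared alone. This comparison shares the co-culture arrays with the one before it and the PIK3CA E545K arrays with the comparison of the lines. SLC25A27 was higher by 1.21 ± 0.25 (SE, limma adjusted p 0.000845), the sole member past 1 on the log2 scale in this comparison, which 3.43% of all genes exceeded. SLC25A23 was higher by 0.61 ± 0.16 (0.00501) and SLC25A38 by 0.57 ± 0.11 (0.000435). On the lower side stood SLC25A30 at -0.98 ± 0.18 (0.000188), SLC25A18 at -0.60 ± 0.17 (0.0117) and SLC25A32 at -0.58 ± 0.09 (3.38e-05). The arrays of these 6 genes did not overlap.

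The other 6 calls against the PIK3CA E545K line were below 0.5 in size. SLC25A37 was higher by 0.49 (limma adjusted p 0.0426), SLC25A44 by 0.44 (0.00747), SLC25A16 by 0.40 (0.0407) and SLC25A12 by 0.36 (0.0237). SLC25A24 differed by -0.46 (0.00458) and SLC25A4 by -0.37 (0.0171). The second ADP/ATP carrier, SLC25A5, differed by -0.11 and did not pass (0.315), nor did the citrate carrier SLC25A1 (-0.06, 0.817). Of the 12 calls, 7 held when any 1 array was left out. SLC25A4 and SLC25A18 were lost without PIK3CA E545K replicate 3 (adjusted p 0.0613 and 0.0589), and SLC25A12 without PIK3CA E545K replicate 2 or co-culture replicate 3 (up to 0.106). SLC25A16 was lost without PIK3CA E545K replicate 1, 2 or 3 or co-culture replicate 2, 3 or 4 (up to 0.175). SLC25A37 was lost without any of the 4 PIK3CA E545K replicates or co-culture replicate 1, 2 or 3 (up to 0.193). Without PIK3CA E545K replicate 2 the count of higher members was 4. Against the margin of 0.5, 0 members were higher and 0 lower by limma, against 192 and 247 of the 12758 genes tested. In the test without the margin, 21 members had an unadjusted p under 0.05, against 35.6% of all genes.

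Most carriers that differed between the lines lay between them in the co-culture. Of the 24, the co-culture mean was between the means of the lines in 20 (83.3%), against 77.5% of the 7587 genes of any kind that differed. It was nearer to the PIK3CA E545K mean in 17 (70.8%), against 75.2%. The 4 with a mean beyond the PIK3CA E545K line were SLC25A11, SLC25A22, SLC25A36 and SLC25A40, by -0.03, -0.21, 0.25 and -0.11 on the log2 scale, none of which passed. Outside both single cultures past the threshold were 0 members by limma, against 1.85% of all genes, and 3 at an unadjusted p under 0.05, against 6.34%. These 3 were SLC25A24, below both lines, and SLC25A37 and SLC25A44, above both. The co-culture signals of SLC25A37 were 9.85, 9.25, 9.28 and 8.85, against 8.28, 8.96, 8.67 and 8.38 in the HER2 L755S line and 8.92, 8.72, 8.70 and 8.92 in the PIK3CA E545K line, so its arrays overlapped with those of each line. SLC25A24 measured 10.25, 10.10, 10.33 and 10.28 in the co-culture, 10.42, 10.61, 10.53 and 10.61 in the HER2 L755S culture and 11.03, 10.58, 10.44 and 10.76 in the PIK3CA E545K culture, and its co-culture arrays lay below all others.

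**Figure D3:**
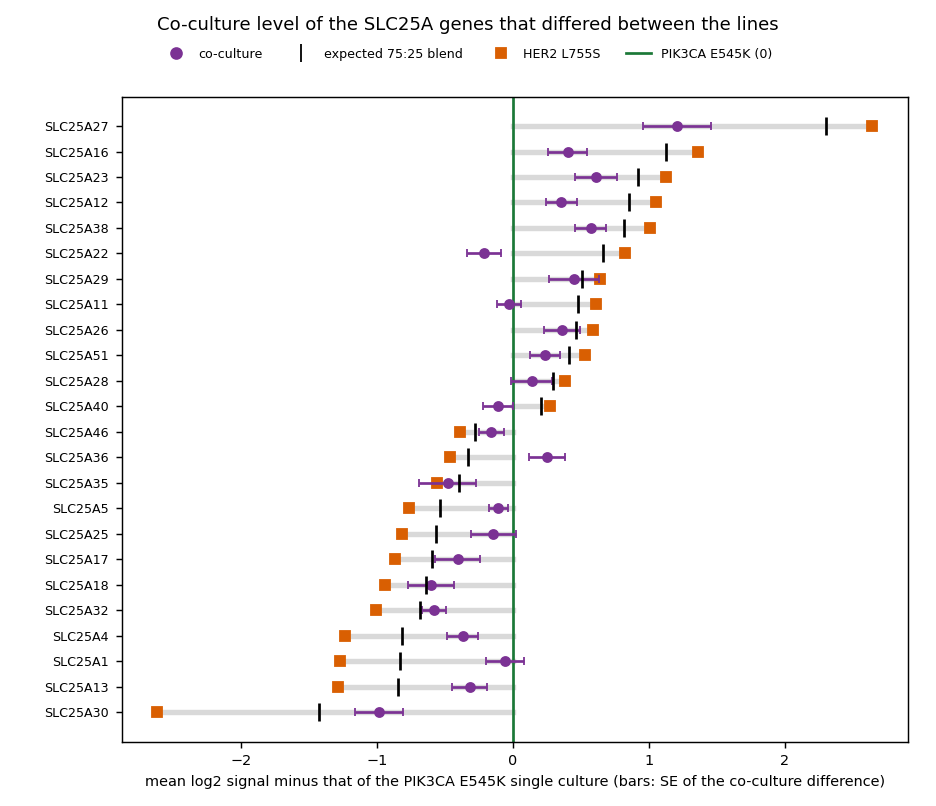
Mean log2 signal relative to the PIK3CA E545K single culture (green line at 0) for the 24 SLC25A genes that differed between the lines. Circles are the co-culture with the standard error of its difference, black ticks the expected 75:25 blend and squares the HER2 L755S line. The co-culture of SLC25A27, at 1.21, lies well short of its blend, and that of SLC25A18, at -0.60, beside it.

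For each gene an expected blend was computed by adding, as linear signals, 75% of the mean in HER2 L755S cells and 25% of that in PIK3CA E545K cells, which assumes equal RNA per cell. Off this blend were 16 of the 38 members, against 40.8% of all genes. The co-culture lay above the blend in 9 members and below it in 7, with 22 not passing (limma moderated test), against 18.5% and 22.3% of all genes. Of the 24 carriers that differed between the lines, 13 were off the blend, all 13 toward the PIK3CA E545K level. That was 54.2% of the 24, against 57.1% of all genes that differed between the lines. Of all 4487 genes that differed between the lines and were off the blend, 96.5% lay on the PIK3CA E545K side. The direction of the 13 was thus near the background. SLC25A1 exceeded the blend by 0.77 ± 0.12 (SE, adjusted p 1.91e-05) and SLC25A5 by 0.43 ± 0.06 (8.38e-06). SLC25A27 differed from it by -1.09 ± 0.24 (0.00095), SLC25A22 by -0.87 ± 0.12 (2.83e-06) and SLC25A16 by -0.72 ± 0.14 (0.000166). By contrast SLC25A32 (0.10 ± 0.08, 0.322) and SLC25A18 (0.04 ± 0.15, 0.866), which also differed between the lines, did not pass against the blend. Of the 14 carriers that did not differ between the lines, 3 were off the blend, namely SLC25A37 at 0.67 (0.00139), SLC25A44 at 0.33 (0.0174) and SLC25A24 at -0.34 (0.0111). Over all 12758 genes tested, 5207 were off the blend, and 4487 of these were among the 7587 that differed between the lines. The blend calls of SLC25A30 (0.44, adjusted p 0.0266) were lost without PIK3CA E545K replicate 2 or 4 or co-culture replicate 1, 3 or 4 (up to 0.107), of SLC25A25 (0.42, 0.0221) without co-culture replicate 2 or 4 (up to 0.0998) and of SLC25A44 without co-culture replicate 3 (0.0995). Against the margin of 0.5, 0 members were above the blend and 1, SLC25A22, was below it. Among the 12758 genes tested, 463 were above and 549 below the blend by this margin.

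Lists of genes that work with the carriers held more lower than higher genes in the HER2 L755S line, by counts that were not tested against the carriers. The lists were chosen with earlier results of these data known, so their direction is not independent evidence. Of the 20 enzymes and 24 other transporters listed, 16 and 21 were tested. Of 16 enzymes that use carried substrates, 1 was higher and 11 were lower (limma), against 30% and 29.5% of all genes, with a median of -0.67, against 0.05 over all genes. ACLY, which splits exported citrate, differed by -2.42 (adjusted p 1.75e-19), MTHFD2 and MTHFD1L of the folate pathway by -2.36 (2.58e-13) and -1.86 (1.8e-12), and GOT1, the cytosolic transaminase of the malate-aspartate shuttle, by -1.41 (3.02e-12). Of 13 genes of the carrier import machinery, 3 were higher and 7 lower, with a median of -0.44. The import pore gene TOMM40 differed by -1.15 (4.65e-09), the small chaperone gene TIMM10 by -1.06 (1.82e-08) and TIMM22, the core of the carrier translocase, by -0.70 (4.27e-06). TIMM8A differed by -0.89 (0.000391). Among the 3 higher import genes, TIMM10B differed by 0.64 (4.78e-05) and TOMM20 by 0.54 (2.16e-06). Of 21 other mitochondrial transporters, 5 were higher and 13 lower, with a median of -0.49. MCUB, a subunit that dampens the calcium uniporter, differed by -2.995 (1.39e-12), and CPT1A, which makes acylcarnitines at the outer membrane, by -1.09 (4.7e-07). Among the 5 higher transporters, SFXN2 differed by 0.95 (0.000127) and SLC8B1 by 0.82 (5.44e-06).

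In the co-culture against the HER2 L755S line these lists held more higher than lower genes. This comparison shares the HER2 L755S arrays with the comparison of the lines, so the counts are not independent. Among the substrate enzymes 10 were higher and 1 lower, among the import genes 7 and 1, and among the other transporters 10 and 4, against 24.9% higher and 26% lower among all genes. Against the PIK3CA E545K line, 2 enzymes were higher and 3 lower, 2 import genes were higher and 2 lower, and 2 transporters were higher and 4 lower, against 11.1% and 14.6% of all genes. Of 9 regulators of mitochondrial biogenesis, 1 was higher and 4 were lower in the HER2 L755S line, with TFB1M at -1.86 (limma adjusted p 1.73e-09). In the co-culture, 3 of the 9 were higher and 2 lower against the HER2 L755S line. Against the PIK3CA E545K line, 1 of the 9, PPARGC1A, was higher and 3 were lower. PPARGC1A, a coactivator of mitochondrial genes, was higher in the co-culture by 1.71 against the HER2 L755S line (1.41e-08) and by 1.32 against the PIK3CA E545K line (3.96e-06), at means of 7.00, 5.29 and 5.68 in the co-culture, HER2 L755S and PIK3CA E545K groups. Of the SLC25 relatives with other symbols, UCP1 and UCP2 did not pass the filter, and UCP3, MTCH1 and MTCH2 did not pass between the lines (0.197, 0.758 and 0.095).

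**Figure D4:**
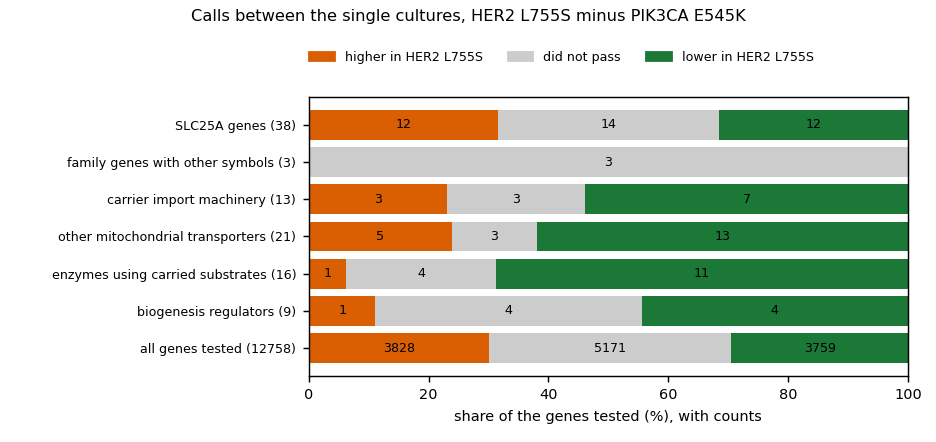
Share of the genes tested in each list that were higher, did not pass or were lower in the HER2 L755S line against the PIK3CA E545K line, with counts in the bars and the number tested in parentheses. The SLC25A genes had 12 higher and 12 lower. The import machinery, other transporters, enzymes using carried substrates (11 lower of 16) and biogenesis regulators held more lower than higher genes. The 3 family genes with other symbols did not pass.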

How the data were processed

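RNA (5 µg per sample) was labelled with a whole-transcript kit, per the labels' protocols. Each deposited table column holds log2 signals per probe set for 1 array. The submitters' processing notes name the Transcriptome Analysis Console as the authors' software. Its version, normalization and genome build are not given in the sources used here. Values were used as deposited. Of 24351 probe sets, 17709 had 1 gene symbol in the platform annotation. For 20 genes with several, none of them a carrier, the brightest was kept. Genes above the 30th percentile of named probe sets on at least 4 arrays were tested (12758).

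In limma 3.58.1 (R 4.3.3) the 3 group means were estimated from all 12 arrays together. Variances were moderated by empirical Bayes, allowing for a trend with signal. Contrasts were two-sided, with Benjamini-Hochberg adjustment over all genes tested and a threshold of 0.05. The blend used delta-method standard errors. The p for a gene outside both lines was the larger of its 2 contrast p-values. The fit was tested on simulated data. The 4 arrays per group limit the precision.

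Members and gene lists were chosen with earlier results of these data known. Array-by-array values are given for the 6 largest differences in each direction between the lines and the 3 largest against each line whose arrays did not overlap, and for the ADP/ATP carriers. SLC25A24 and SLC25A37 were added after their values were seen. Alternatives were filters, normalizations, probe-set means, moderation, array weights, the arrays compared alone, a replicate block, a margin of 0.5 and leaving out each array.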

Additional observations from a re-analysis of the deposited data

Results flagged for a closer look

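Within a group of 4 arrays, 10 of 135 member groups had an array far from the other 3, its gap to the nearest array exceeding Dixon's critical share of the group's range. Chance alone marks about 1 in 20 groups. Of the 10, 8 were in the co-culture, 0 in the HER2 L755S line and 2 in the PIK3CA E545K line. The share of such groups over all genes was not examined here. Whether the same arrays also lay apart for other genes is thus not known. Co-culture replicate 1 was low for SLC25A11 (11.97, nearest array 12.22), SLC25A38 (11.24, nearest 11.57) and SLC25A39 (7.66, nearest 8.06). Co-culture replicate 2 was high for the citrate carrier SLC25A1 (11.76, nearest 11.48) and for SLC25A14 (5.84, nearest 5.42). It was low for SLC25A34 (6.71, nearest 7.15), SLC25A36 (9.86, nearest 10.11) and SLC25A52 (5.95, nearest 6.87). In the PIK3CA E545K line, replicate 3 was high for SLC25A18 (8.26, nearest 7.80) and replicate 1 low for SLC25A29 (5.86, nearest 6.12).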

How the results depend on the processing

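Over 23 alternatives, no member called in a comparison changed direction. The filters, probe-set means, moderation, replicate block, margin and arrays compared alone left each member's difference unchanged, so they could not change a direction. Only the normalizations, array weights and arrays left out could do so. Against the tested margin of 0.5, 6 members were higher and 7 lower between the lines, against 1561 and 1963 of the 12758 genes tested. For the co-culture against the HER2 L755S line the counts were 4 and 3, against 1331 and 938. Against the PIK3CA E545K line they were 0 and 0, against 192 and 247. Against the blend they were 0 and 1, against 463 and 549. This margin asks for a larger change. For the co-culture against the PIK3CA E545K line, 8 members were lower with array weights and 8 with the arrays compared alone, against 5. On the higher side SLC25A26 was added by either alternative, and SLC25A29 with the arrays compared alone. The cause was not tested. Leaving out 1 array gave 10 to 12 higher and 11 to 13 lower members between the lines, 9 to 12 and 8 to 10 for the co-culture against the HER2 L755S line, 4 to 8 and 5 to 7 against the PIK3CA E545K line, and 7 to 9 and 7 to 8 against the blend. Differences near 0 that did not pass turned sign under some alternatives in several members, among them SLC25A10, SLC25A11, SLC25A14, SLC25A20 and SLC25A33. Of the members given array by array, these were SLC25A1 in the co-culture against the PIK3CA E545K line (0.020 without PIK3CA E545K replicate 2, and -0.18 to 0.020 over single arrays left out), and SLC25A18 against the blend (-0.034 with array weights, -0.091 without co-culture replicate 1, and -0.091 to 0.12 over single arrays left out). With arrays shifted to a common median, SLC25A17, SLC25A44 and SLC25A46 no longer passed against the HER2 L755S line (limma adjusted p 0.0508, 0.0926 and 0.118). Same-numbered arrays did not visibly deviate together (correlations of -0.03 to 0.06, against -0.10 to 0.11 for different-numbered arrays). This does not settle whether the numbers pair the arrays, since paired arrays can share little deviation. With the replicate block, 12 and 12 members were higher and lower between the lines, 12 and 10 for the co-culture against the HER2 L755S line and 8 and 7 against the PIK3CA E545K line. SLC25A45 was above the filter level on 4 arrays, which limits what its differences can show.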
